A study of Rattus norvegicus with 4 samples.

Results

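The genes described here are the 37 rows that the deposited gene table places on the rat mitochondrial chromosome, MT, out of 33506 rows in all. They comprised 13 protein-coding genes, 2 ribosomal RNA (rRNA) genes and 22 transfer RNA (tRNA) genes. Membership was set by chromosome alone, but the group itself was selected on the cisplatin versus vehicle values of these same libraries, in which the mitochondrial mRNAs stood higher after cisplatin. The values of the 37 genes in that contrast are therefore given as a description, and the calls that a test across all genes made among them are counted but support nothing.

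RNA was sequenced from dorsal root ganglia (DRG), the ganglia that hold the cell bodies of sensory neurons, of wild-type neonatal Wistar rats, with 2 libraries from vehicle-treated rats (phosphate-buffered saline) and 2 from cisplatin-treated rats (0.3 mg/kg), each labelled as a separate rat. The study's methods give intraperitoneal injections at P14 and P16 and pooled lumbar ganglia taken at P23, whereas the labels give isolation 16 days after treatment, and the sex of each rat was not stated. The comparison addressed how cisplatin, a platinum drug that forms DNA adducts, given early in life altered gene expression in the sensory ganglia. Libraries were made from polyadenylated RNA and held 21384801 to 25618417 counts in genes.

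Mitochondria carry their own small circular genome in many copies per cell. It is transcribed from both strands as long precursors, from which the tRNAs are cut out and the mRNAs and rRNAs released, and most of the mRNAs then gain a short poly(A) tail. The proteins are all core subunits of the oxidative phosphorylation complexes, which are completed by many more subunits encoded in the nucleus, and the rRNAs and tRNAs serve the ribosomes inside the organelle. Sensory neurons have long axons and draw heavily on mitochondrial ATP, and cisplatin is known to bind mitochondrial as well as nuclear DNA.

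Mitochondrial rows took up a larger share of the counts in both cisplatin libraries than in either vehicle library. The share was 1.53% in vehicle replicate 1 (Wilson 95% interval 1.53 to 1.54%), 2.58% in vehicle replicate 2 (2.58 to 2.59%), 5.46% in cisplatin replicate 1 (5.46 to 5.47%) and 4.78% in cisplatin replicate 2 (4.77 to 4.79%). These intervals cover counting error only, and the spread between rats was far wider, with means of 2.06% ± 0.744 (SD, n = 2) for vehicle and 5.12% ± 0.485 (n = 2) for cisplatin. The groups did not overlap, although the vehicle libraries differed from each other more than the cisplatin libraries did. Against the nuclear counts left after removing the 100 highest nuclear genes, the same mitochondrial counts came to 2.05% and 3.84% in the vehicle libraries and 7.48% and 7.15% in the cisplatin libraries, so the order of the groups did not change with that denominator. Whether cells held more mitochondrial RNA or cells rich in it made up more of the tissue cannot be told apart in bulk ganglia.

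**Figure D1:**
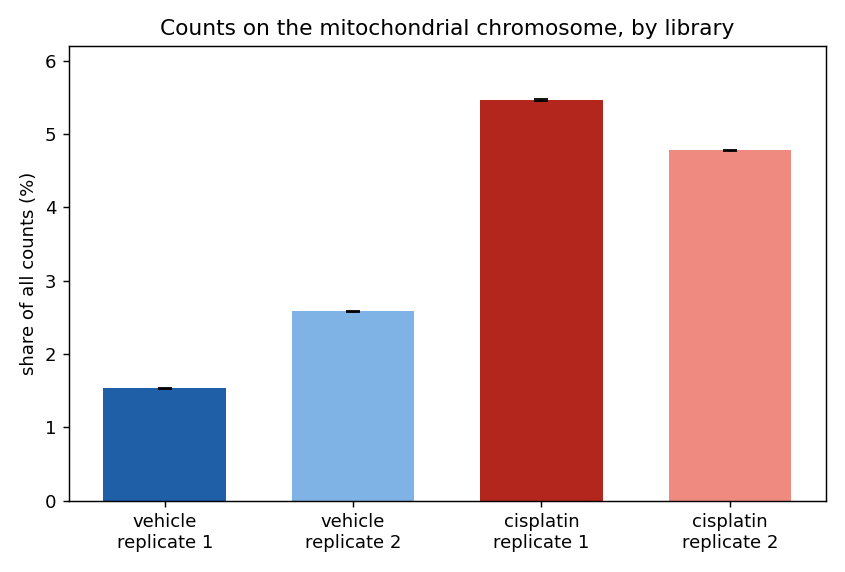
Share of all gene counts that fell on chromosome MT (y axis, percent) in each of the 4 libraries (x axis), with Wilson 95% intervals for counting error as error bars. The vehicle libraries stand at 1.53 and 2.58% and the cisplatin libraries at 5.46 and 4.78%.

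Most of this share was mRNA. The 13 protein-coding rows held 95.7% and 97.5% of the mitochondrial counts in the vehicle libraries and 98.5% and 98.0% in the cisplatin libraries. The 2 rRNA rows held 4.25% and 2.41% of the mitochondrial counts in vehicle and 1.46% and 1.97% in cisplatin, and the 22 tRNA rows together no more than 0.0879% in any library. The counts thus describe mainly the polyadenylated messengers of the organelle, and the rRNA and tRNA rows give only what came through a poly(A) selection.

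Expression is given as CPM, counts relative to library size, scaled between libraries by the trimmed mean of M-values (TMM) method of edgeR. Each fold change is the log2 ratio of cisplatin to vehicle from an edgeR quasi-likelihood fit across 16182 genes. Its standard error (SE) was derived as the absolute log2 fold change divided by the square root of the F statistic of that fit. For 12 of the 13 mRNAs both cisplatin libraries lay above both vehicle libraries, beside 20.5% of all genes tested, and the exception was Mt-atp8. The median log2 fold change of the 13 was 1.20, with a range of 0.19 to 1.94. Vehicle replicate 2 exceeded vehicle replicate 1 for all 13 mRNAs, by 0.36 to 1.60 on the log2 scale (median 0.82), while cisplatin replicate 2 differed from cisplatin replicate 1 by -0.38 to 0.23 (median -0.03). The fold at the median was 2.30, and it was 1.75 without vehicle replicate 1 and 3.39 without vehicle replicate 2.

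Complex I, the NADH dehydrogenase that passes electrons from NADH to ubiquinone, has 7 mitochondrial subunits, and all 7 were higher in both cisplatin libraries, with a median log2 fold change of 1.16. Mt-nd2 (MT 3904 to 4942 on the plus strand, Rnor_6.0) lies in the proton-pumping membrane arm. It stood at 381 and 1159 CPM in the vehicle libraries and at 2892 and 2999 CPM in the cisplatin libraries, a log2 fold change of 1.94 (SE 0.58), the largest among the mRNAs. The groups did not overlap, although on a log scale the gap between the vehicle libraries was wider than that from vehicle replicate 2 to the cisplatin libraries. Mt-nd1 (MT 2740 to 3694), whose product lies at the junction of the membrane arm and the peripheral arm, stood at 746 and 1554 CPM in vehicle and at 2585 and 2537 CPM in cisplatin, a log2 fold change of 1.16 (SE 0.44). Both cisplatin libraries were close together here and above both vehicle libraries.

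Mt-nd3 (MT 9451 to 9798) encodes a small subunit near the ubiquinone site. It stood at 196 and 257 CPM in vehicle and at 655 and 651 CPM in cisplatin, a log2 fold change of 1.53 (SE 0.26). The lower cisplatin library was 2.53 times the higher vehicle library, the widest gap between the groups among the 12 mRNAs that did not overlap, for which this ratio was at least 1.35. Mt-nd4l and Mt-nd4, which encode neighbouring membrane subunits and share 7 bases of the same strand, were both higher in cisplatin. Mt-nd4l (MT 9870 to 10166) stood at 108 and 138 CPM in vehicle and at 201 and 226 CPM in cisplatin, a log2 fold change of 0.79 (SE 0.22). Mt-nd4 (MT 10160 to 11537) stood at 123 and 239 CPM in vehicle and at 453 and 381 CPM in cisplatin, a log2 fold change of 1.20 (SE 0.36). The groups were apart for both.

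Mt-nd5 and Mt-nd6 face each other on opposite strands and share 23 bases at their ends, and whether reads were counted by strand was not stated in the sources used here, so reads from the shared stretch, and antisense reads, could have entered either row. Mt-nd5 (MT 11736 to 13565), the longest of the 13, encodes the outermost pumping subunit of the membrane arm and stood at 415 and 603 CPM in vehicle and at 816 and 844 CPM in cisplatin, a log2 fold change of 0.71 (SE 0.29). Mt-nd6 (MT 13543 to 14061) is the only mRNA on the minus strand, and it stood at 175 and 271 CPM in vehicle and at 489 and 377 CPM in cisplatin, a log2 fold change of 0.96 (SE 0.31). The row of the minus-strand mRNA had a value within the range of the 12 plus-strand rows. How much of it came from antisense reads was not tested.

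Mt-cytb (MT 14136 to 15278) encodes cytochrome b, the only mitochondrial subunit of complex III, which carries electrons from ubiquinol to cytochrome c. It stood at 912 and 2523 CPM in the vehicle libraries and at 5165 and 4809 CPM in the cisplatin libraries, a log2 fold change of 1.54 (SE 0.57). As with Mt-nd2, vehicle replicate 1 was far below vehicle replicate 2, and the cisplatin libraries were close together and above both.

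The 3 mitochondrial subunits of complex IV, cytochrome c oxidase, form its catalytic core, and their median log2 fold change was 1.45. Mt-co1 (MT 5323 to 6867), which binds the haem groups where oxygen is reduced, was the mRNA with the most counts in every library. It stood at 5906 and 10450 CPM in vehicle and at 17240 and 16818 CPM in cisplatin, a log2 fold change of 1.06 (SE 0.56), the lowest of the 3. Mt-co2 (MT 7006 to 7689), the subunit that accepts electrons from cytochrome c, stood at 1669.5 and 2797 CPM in vehicle and at 6531 and 5651 CPM in cisplatin, a log2 fold change of 1.45 (SE 0.45). Mt-cox3 (MT 8599 to 9382), the third core subunit, stood at 1386.5 and 3566 CPM in vehicle and at 9045 and 8403 CPM in cisplatin, a log2 fold change of 1.82 (SE 0.59). None of the 3 overlapped between the groups.

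The 2 mitochondrial subunits of complex V, the ATP synthase, had unlike values although their genes overlap by 43 bases on the same strand. Mt-atp6 (MT 7919 to 8599), part of the proton channel, stood at 1274 and 3206 CPM in vehicle and at 6310 and 6205 CPM in cisplatin, a log2 fold change of 1.48 (SE 0.55), with the groups apart. Mt-atp8 (MT 7758 to 7961), a small subunit of the membrane part, stood at 4.61 and 6.76 CPM in vehicle and at 5.97 and 6.99 CPM in cisplatin, a log2 fold change of 0.19 (SE 0.32), and the groups overlapped. Its counts were 118 and 136 in vehicle and 155 and 168 in cisplatin. The 2 products are translated from 1 shared messenger, so the low Mt-atp8 value is for reads that the authors' counting assigned to that short row, and how reads over both rows were assigned was not stated in the sources used here.

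**Figure D2:**
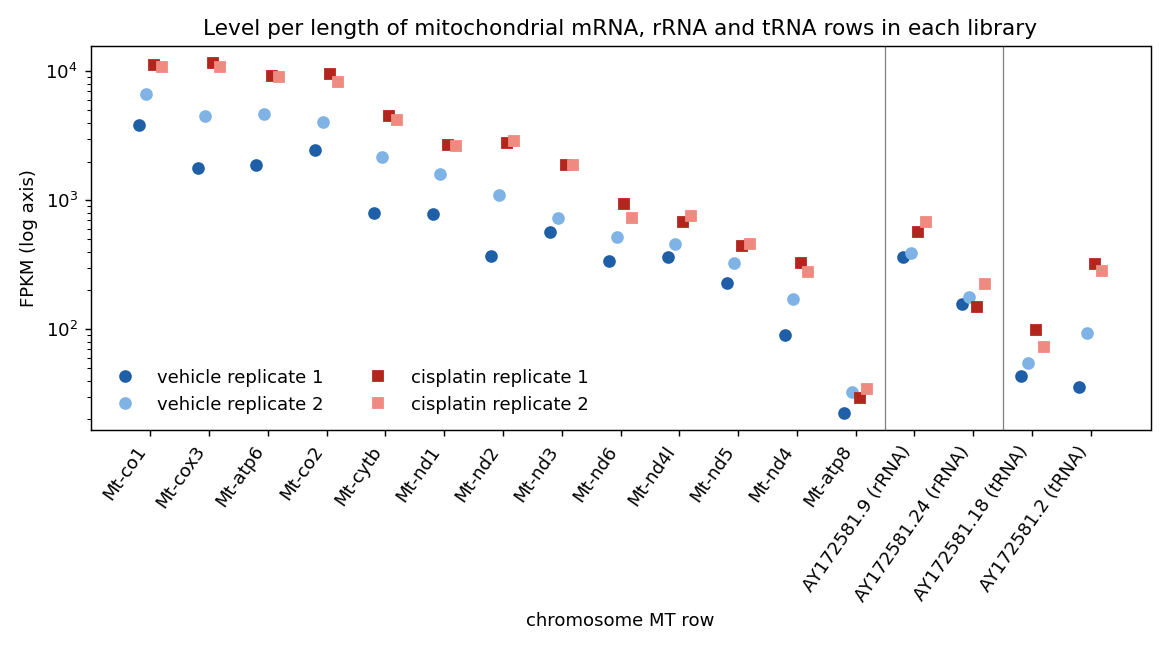
Level per length in FPKM (log axis) of the 13 mRNA rows, the 2 rRNA rows and the 2 tRNA rows with the most counts, with 1 point for each library. Cisplatin points lie above vehicle points for every mRNA except Mt-atp8, where they interleave, and the vehicle points are spread more widely than the cisplatin points for most mRNAs.

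Per length, in FPKM (counts divided by gene length and by 1 constant per library), the mRNAs spanned a wide range. In vehicle Mt-co1 led with 5266 ± 2028 FPKM (SD, n = 2), followed by Mt-atp6 (3269 ± 1972), Mt-co2 (3249 ± 1134) and Mt-cox3 (3139 ± 1932), neighbours whose libraries overlapped. In cisplatin the same 4 led, with Mt-cox3 at 11128 ± 571 FPKM, Mt-co1 at 11022 ± 185, Mt-atp6 at 9188 ± 102 and Mt-co2 at 8905 ± 904. Of these, Mt-cox3 and Mt-co1 overlapped, as did Mt-atp6 and Mt-co2, while Mt-co1 was above Mt-atp6 in both libraries. At the other end Mt-nd5, Mt-nd4 and Mt-atp8 were the lowest 3 in every library, in that order. Their means were 277 ± 70.0, 131 ± 58.0 and 27.7 ± 7.21 FPKM in vehicle and 454 ± 10.9, 303 ± 36.9 and 31.8 ± 3.56 FPKM in cisplatin. The highest row was Mt-co1 in both vehicle libraries and in cisplatin replicate 2, and Mt-cox3 in cisplatin replicate 1. Per length it was 169 and 204 times the lowest in vehicle and 394 and 318 times in cisplatin. Mt-atp8 was the lowest each time, at 0.0121 and 0.00704 of Mt-atp6 in vehicle and 0.00316 and 0.00376 in cisplatin. Since Mt-atp8 and Mt-atp6 share 1 messenger, the span is one of rows as counted, not of separate messengers. Mt-nd4l, whose row overlaps that of Mt-nd4, was 4.05 and 2.68 times Mt-nd4 per length in vehicle and 2.05 and 2.75 times in cisplatin. The rank of Mt-nd4 is uncertain to the same extent.

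The make-up of the mitochondrial mRNA also differed between the groups, as a description of 2 libraries against 2. Mt-co1 made up 44.4% and 39.0% of the mitochondrial mRNA counts in vehicle and 32.9% and 33.7% in cisplatin. Mt-cox3 made up 10.4% and 13.3% in vehicle and 17.3% and 16.8% in cisplatin. Mt-nd2 made up 2.87% and 4.33% in vehicle and 5.52% and 6.01% in cisplatin. In each of these the groups did not overlap and vehicle replicate 2 lay on the cisplatin side of vehicle replicate 1. The ratio of Mt-cox3 to Mt-co1 counts was accordingly 0.235 and 0.341 in vehicle and 0.525 and 0.500 in cisplatin, and that of Mt-nd2 to its neighbour Mt-nd1 was 0.511 and 0.746 in vehicle and 1.12 and 1.18 in cisplatin. Mt-nd5, by contrast, made up 3.12% and 2.25% in vehicle and 1.56% and 1.69% in cisplatin. The 4 mRNAs with the most counts together made up 77.0% and 74.8% in vehicle and 74.7% and 74.3% in cisplatin, a narrower range than that of Mt-co1 alone. Across the 13 mRNAs the log2 fold change had a Spearman rho of 0.17 with gene length, 0.56 with mean FPKM over all 4 libraries and -0.14 with position along the chromosome, over genes that share the same libraries and depth. The mean FPKM includes the cisplatin values that also set the fold change, so a positive rho with it is partly built in.

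**Figure D3:**
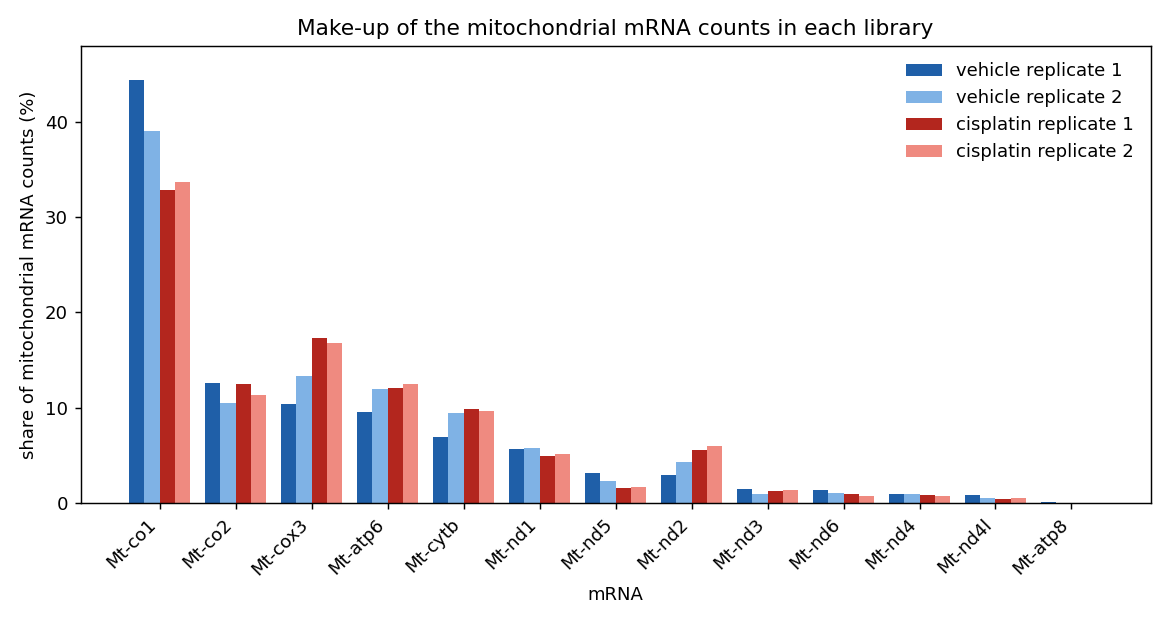
Percentage of the mitochondrial mRNA counts (y axis) taken by each of the 13 mRNAs (x axis), with 1 bar for each library. Mt-co1 takes 44.4 and 39.0% in vehicle and 32.9 and 33.7% in cisplatin, while Mt-cox3 and Mt-nd2 take larger shares in cisplatin.

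The rRNA rows differed less between the groups than most of the mRNA rows. The table gives no product name for them, so they are named here by identifier. The shorter row, AY172581.9 (MT 68 to 1025, 958 bases), stood at 346 and 379 CPM in vehicle and at 541 and 652 CPM in cisplatin, a log2 fold change of 0.72 (SE 0.24). The longer row, AY172581.24 (MT 1094 to 2664, 1571 bases), stood at 244 and 282 CPM in vehicle and at 235 and 353 CPM in cisplatin, a log2 fold change of 0.16 (SE 0.28). The groups were apart for the shorter row and overlapped for the longer one, for which leaving out cisplatin replicate 2 turned the value to -0.16. The ratio of shorter to longer rRNA counts was 1.42 and 1.35 in vehicle and 2.30 and 1.85 in cisplatin. For each rRNA count there were 22.5 and 40.5 mRNA counts in vehicle and 67.5 and 49.6 in cisplatin, groups that did not overlap but came close between vehicle replicate 2 and cisplatin replicate 2.

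tRNAs bring amino acids to the ribosome and, once mature, carry no long poly(A) tail. Their rows were sparse and held 313 and 385 counts in all in vehicle and 891 and 743 in cisplatin. No count was recorded for 3 of the 22 in any library, which allows up to 3 counts, or 0.116 to 0.149 CPM, in each library, and 14, including those 3, had fewer than 20 counts over the 4 libraries. The filter on low counts kept 7, of which 3 had a log2 fold change above 0. A row of the minus strand, AY172581.2 (MT 15348 to 15415), held 62 and 130 counts in vehicle and 564 and 461 in cisplatin. That came to 2.42 and 6.46 CPM in vehicle and 21.7 and 19.2 CPM in cisplatin, a log2 fold change of 2.21 (SE 0.47). It was the largest log2 fold change among the 22 mitochondrial rows kept, and the groups were well apart. This row alone took 19.8% and 33.8% of the tRNA counts in vehicle and 63.3% and 62.1% in cisplatin, and the tRNA rows without it stood together at 9.80 and 12.7 CPM in vehicle and at 12.6 and 11.7 CPM in cisplatin, which overlapped.

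AY172581.2 lies just beyond Mt-cytb on the opposite strand, and its counts were 0.00265 and 0.00256 of the Mt-cytb counts in vehicle and 0.00421 and 0.00399 in cisplatin. Which molecules these reads come from was not tested, since the row is shorter than a usual read and the strand setting of the counting was not stated in the sources used here. A second minus-strand row, AY172581.18 (MT 5081 to 5152), held 80 counts in each vehicle library and 185 and 127 in the cisplatin libraries, a log2 fold change of 0.81 (SE 0.34), with the groups apart. For the other tRNA rows with at least 100 counts the log2 fold change was 0.16 (SE 0.43) for AY172581.10, -0.30 (SE 0.59) for AY172581.7 and -0.50 (SE 0.48) for AY172581.16, in each case near its standard error or below it. Of the rows with fewer counts, AY172581.1 had the lowest value, -1.54 (SE 0.68), from 10, 9, 3 and 4 counts.

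**Figure D4:**
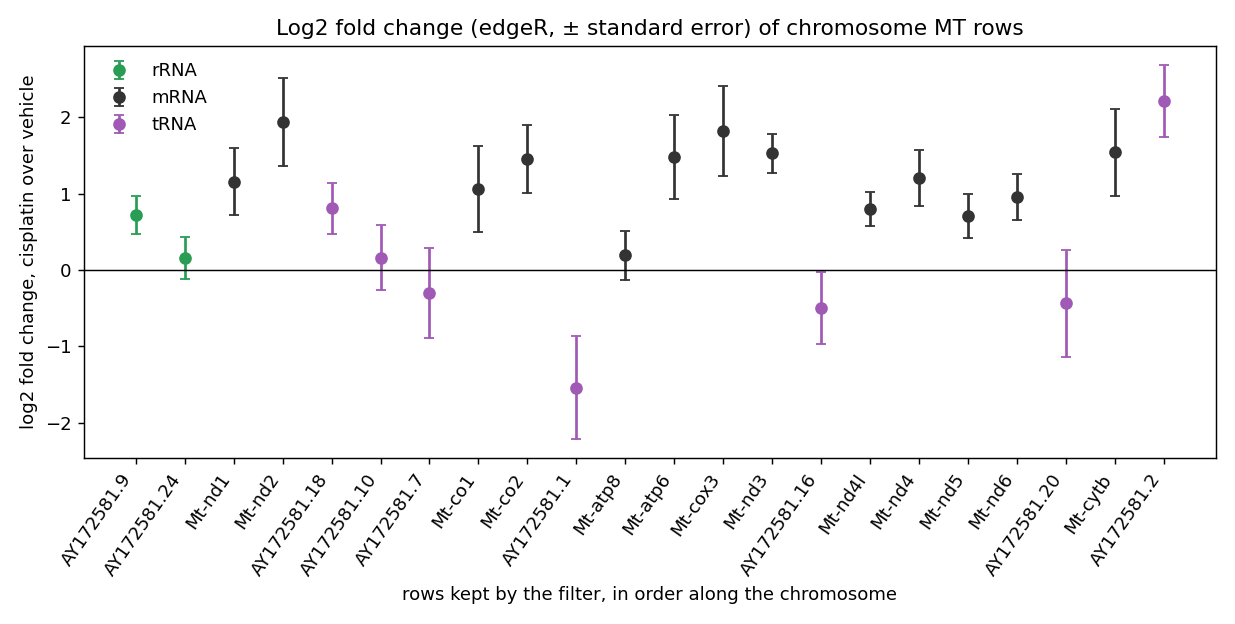
Log2 fold change of cisplatin over vehicle from the edgeR fit (y axis, bars show the standard error) for the 22 mitochondrial rows kept by the filter on low counts, in order along the chromosome (x axis) and coloured by kind of RNA. The mRNA rows lie between 0.19 and 1.94, the rRNA rows at 0.72 and 0.16, and the tRNA rows between -1.54 and 2.21.

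How many mitochondrial rows passed a threshold depended on the tool. A gene was called when its adjusted p (Benjamini-Hochberg) was under 0.05 with at least a 1.5-fold change. By edgeR 0 mitochondrial rows were called, beside 0% of all 16182 genes called higher and 0.00618% called lower, and 12 mitochondrial rows were higher at an unadjusted p under 0.05, beside 2.87% of all genes higher and 5.11% lower. By DESeq2 6 were called higher, beside 0.278% of all genes, namely Mt-nd2, Mt-nd3, Mt-co2, Mt-cox3, Mt-atp6 and AY172581.2. No mitochondrial row was called lower by either tool, beside 0.519% of all genes called lower by DESeq2. Without a test, 12 mRNAs were at least 1.5-fold higher, beside 7.99% of all genes, and 9 were at least 2-fold higher, beside 2.16%. Both cisplatin libraries lay below both vehicle libraries for 20.9% of all genes. Because these rows were put forward from this contrast, the counts describe the libraries and nothing is read from them.

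Some reads of mitochondrial origin could be counted on nuclear copies of mitochondrial DNA, and 4 nuclear rows of the table are described as resembling a mitochondrial product. An unannotated row on chromosome 20 (19481408 to 19485844), described as like the product of Mt-nd4 and named here after its values were seen, held 398 and 576 counts in vehicle and 1937 and 4535 in cisplatin, a log2 fold change of 2.58 (SE 0.53). Mt-nd4 itself held 3163 and 4810 counts in vehicle and 11771 and 9156 in cisplatin. Both cisplatin libraries were the higher ones for either row, but within cisplatin the order was opposite, with replicate 2 higher on the nuclear row and lower on Mt-nd4. How reads that match both places were assigned was not stated in the sources used here, so the Mt-nd4 values are uncertain to that extent. The other 3 rows held at most 57 counts in a library.

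The nuclear partners of these subunits had smaller fold changes. Of 83 nuclear oxidative phosphorylation subunits listed, 74 had a row and 73 were kept, and 69 of the 73 had a log2 fold change above 0, with a median of 0.44, beside a median of -0.01 over all 16160 nuclear genes tested. Both cisplatin libraries lay above both vehicle libraries for 58 of the 73 and below for 1, where 3302 and 3387 of the 16160 nuclear genes did so. No subunit was called by edgeR, with 21 higher and 1 lower at an unadjusted p under 0.05, beside 453 higher and 827 lower of all 16160 nuclear genes. DESeq2 called 3 higher and 1 lower, beside 39 and 84 of the 16160. With a correction of the fit for gene length the median was 0.23. By complex the medians were 0.42 for complex I (30 genes), 0.20 for complex II (4 genes), which has no mitochondrial subunit, 0.54 for complex III (8 genes), 0.54 for complex IV (15 genes) and 0.41 for complex V (16 genes). The list was drawn up with earlier results of these libraries known and is no independent evidence of its direction.

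The subunits that DESeq2 called higher were Ndufa4, now placed in complex IV, and the complex I accessory subunits Ndufb10 and Ndufa11. Ndufa4 stood at 120 and 139 CPM in vehicle and at 296 and 254 CPM in cisplatin, an edgeR log2 fold change of 1.09 (SE 0.22, DESeq2 adjusted p 0.00891, edgeR adjusted p 0.537). Ndufb10 (log2 fold change 1.04, SE 0.21) had a DESeq2 adjusted p of 0.0261, and Ndufa11 (1.06, SE 0.24) had 0.0405. The gene called lower was Atp5f1 (ENSRNOG00000016000), the peripheral stalk subunit b of the ATP synthase, at 27.3 and 48.1 CPM in vehicle and 9.55 and 15.2 CPM in cisplatin (log2 fold change -1.61, SE 0.37, DESeq2 adjusted p 0.0154). A second row carries the same gene name and description, with few counts, so how reads were split between the 2 copies is uncertain. The ends of the other lists were Ndufs1 at 0.10 in complex I, Sdha at -0.03 and Sdhb at 0.53 in complex II, Uqcrfs1 at 0.10 and Uqcr10 at 0.98 in complex III, Cox5b at 1.16 in complex IV and Atp5mc2 at 0.92 in complex V, all as edgeR log2 fold changes, and none of these was called by either tool. Cox6a2, the isoform of heart and skeletal muscle, was lowest at -2.89 (SE 1.57), from 127 and 1 counts in vehicle and 12 and 5 in cisplatin.

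Summed within each complex, mitochondrial subunits stood higher relative to the nuclear ones in cisplatin than in vehicle. For complex I the ratio of mitochondrial to nuclear CPM was 0.731 and 1.53 in vehicle and 2.05 and 2.17 in cisplatin. For complex III it was 0.907 and 2.72 in vehicle and 3.63 and 3.85 in cisplatin. For complex IV it was 3.98 and 7.91 in vehicle and 9.65 and 9.91 in cisplatin, and for complex V 0.286 and 0.876 in vehicle and 1.20 and 1.32 in cisplatin. In each complex the groups were apart, and vehicle replicate 2 was nearer to the cisplatin libraries than to vehicle replicate 1 for complexes I, III, IV and V alike.

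**Figure D5:**
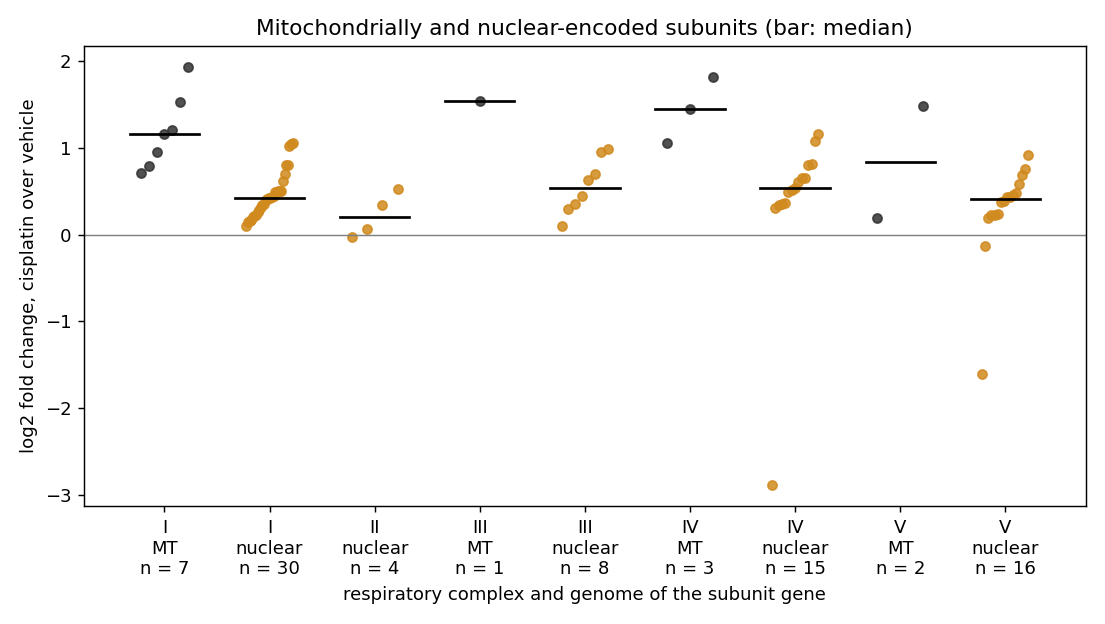
Log2 fold change of cisplatin over vehicle from the edgeR fit (y axis) for each subunit gene encoded on chromosome MT and in the nucleus, by respiratory complex (x axis), with a bar at the median. Medians are 1.16 and 0.42 for complex I, 1.45 and 0.54 for complex IV and 0.84 and 0.41 for complex V, mitochondrial before nuclear.

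Genes that act on the mitochondrial genome were centred near the median of all genes. Of 17 nuclear genes for mitochondrial transcription and DNA replication, 9 had a log2 fold change above 0 and 8 below, with a median of 0.01. None was called by edgeR or DESeq2. Over all genes edgeR called 0% higher and 0.00618% lower, and DESeq2 0.278% and 0.519%, so the absence of calls says little about this list. Both cisplatin libraries lay above both vehicle libraries for 4 of the 17 and below for 4, beside 20.5% and 20.9% of all genes. Polrmt, the mitochondrial RNA polymerase, stood at 24.4 and 24.9 CPM in vehicle and at 20.2 and 19.5 CPM in cisplatin, a log2 fold change of -0.31 (SE 0.19, edgeR adjusted p 0.626). Tfam, which packages mitochondrial DNA and starts transcription, stood at 28.0 and 26.7 CPM in vehicle and at 25.3 and 30.8 CPM in cisplatin (log2 fold change 0.04, SE 0.20, edgeR adjusted p 0.963). The polymerase gene was slightly lower in both cisplatin libraries, and Tfam overlapped between the groups. The initiation factor Tfb2m had a log2 fold change of 0.37 (SE 0.21), the elongation factor Tefm -0.33 (SE 0.31), the DNA polymerase Polg -0.28 (SE 0.17) and the helicase Twnk -0.07, and the ends of the list were Primpol at -0.55 and Mterf4 at 0.47.

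Of 34 genes for processing and stability of mitochondrial RNA, 18 had a log2 fold change above 0, with a median of 0.06. None was called by edgeR or DESeq2, beside 0.00618% of all genes called lower by edgeR. DESeq2 called 0.278% of all genes higher and 0.519% lower. Both cisplatin libraries lay above both vehicle libraries for 9 of the 34 and below for 3, beside 20.5% and 20.9% of all genes. Slirp, which with Lrpprc binds and stabilises mitochondrial mRNAs, was the highest of the 34. It stood at 11.6 and 11.8 CPM in vehicle and at 19.8 and 20.1 CPM in cisplatin, a log2 fold change of 0.77 (SE 0.20, edgeR adjusted p 0.537, DESeq2 adjusted p 0.266), and its groups were apart with libraries of a group close together. Lrpprc stood at 144 and 94.4 CPM in vehicle and at 113 and 105 CPM in cisplatin (log2 fold change -0.13, SE 0.26). Its groups overlapped and the value was smaller in size than its SE, so its sign is not settled. Elac2, which cuts tRNAs from the precursor at their 3′ ends, had a log2 fold change of 0.09, and Pnpt1 and Supv3l1, the exonuclease and helicase that degrade mitochondrial RNA, had 0.16 and 0.24. Nsun3 was lowest at -0.50 (SE 0.77), from only 10 and 12 counts in vehicle and 4 and 13 in cisplatin, which overlapped.

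No gene in the lists for translation, biogenesis and mitochondrial mass was called by edgeR or DESeq2. Over all genes edgeR called 0.00618% lower, and DESeq2 called 0.278% higher and 0.519% lower. The 16 mitochondrial tRNA synthetases had a median of -0.03, from Ears2 at -0.92 to Fars2 at 0.49, with 7 of the 16 above 0. The 12 translation factors had a median of 0.16, from Gfm2 at -0.31 to Oxa1l at 0.46, with 9 of the 12 above 0. The 12 regulators of mitochondrial biogenesis had a median of -0.10, from Ppargc1b at -1.39 (SE 0.49, edgeR adjusted p 0.537) to Sirt3 at 0.52, with 4 of the 12 above 0, Ppargc1a at -0.42 and Nrf1 at 0.14. The 13 genes often used as measures of mitochondrial mass had a median of 0.27, from Hspa9 at -0.40 to Vdac1 at 0.45, with citrate synthase, Cs, at -0.14. Of these 13, 11 had a log2 fold change above 0. Both cisplatin libraries lay above both vehicle libraries for 7 of the 13 and below for 1, beside 20.5% and 20.9% of all genes. The same counts were 1 above and 5 below for the 12 biogenesis regulators. They were 2 and 1 for the 12 translation factors, and 3 and 6 for the 16 synthetases.

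The libraries also differed in cell markers, whose part in the mitochondrial values was not tested. All 13 sensory neuron markers were detected and had a log2 fold change above 0 (median 0.31), from Nefh at 0.07 to Uchl1 at 0.77. For 4 of the 13 both cisplatin libraries lay above both vehicle libraries, beside 20.5% of all genes. Together they summed to 32540 and 25000 CPM in vehicle and 40060 and 28640 CPM in cisplatin. These sums overlapped between the groups, and replicate 1 was higher than replicate 2 in each group. All 8 Schwann cell markers were detected and had a log2 fold change below 0 (median -0.31), from Prx at -1.05 to S100b at -0.04. For 1 of the 8 both cisplatin libraries lay below both vehicle libraries, beside 20.9% of all genes. Their summed CPM was 61770 and 155900 in vehicle and 48580 and 137000 in cisplatin. The groups thus overlapped, and replicate 2 was higher than replicate 1 in each group. The mitochondrial share was higher in replicate 2 within vehicle and lower in replicate 2 within cisplatin. The 7 skeletal muscle markers with a row were all below 0 (median -3.40), from Tnni2 at -4.92 to Acta1 at -2.21, and summed to 722 and 21.3 CPM in vehicle and to 66.6 and 20.2 CPM in cisplatin. Vehicle replicate 1, with the most muscle RNA, had the lowest mitochondrial share, and without it the median log2 fold change of the 13 mRNAs was 0.81.

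Markers of other cells were summed likewise. The 5 satellite glia markers summed to 4007 and 3346 CPM in vehicle and 4349 and 3812 CPM in cisplatin, from Kcnj10 at -1.11 to Fabp7 at 0.55 in log2 fold change. The 7 markers of fibroblasts and meninges summed to 5612 and 7410 CPM in vehicle and 3009 and 5623 CPM in cisplatin, and by DESeq2 Ptgds was called higher (log2 fold change 2.07) and Col1a2 lower (-1.59). Endothelial markers summed to 75.7 to 116 CPM over the 4 libraries, with Cldn5 listed at 0 in all of them and the others from Kdr at -0.51 to Cdh5 at 0.13. Macrophage markers summed to 44.7 to 52.1 CPM, from Cd163 at -0.69 to Cd68 at 0.86. The erythroid markers with a row, Hbb, Hbb-b1 and Alas2, summed to 1057 to 1228 CPM, from Hbb at -0.02 to Hbb-b1 at 0.15. Adipose markers reached 11.0 CPM in vehicle replicate 1 and at most 2.89 CPM in the other libraries, from Fabp4 at -2.72 to Cidea at 0.04, with Ucp1 listed at 0.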

How the data were processed

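RNA-seq libraries of rat DRG (2 vehicle, 2 cisplatin) were compared. The deposited gene table holds raw counts, and a second table holds FPKM values, which the authors computed from them: 100% of genes lay within 0.1% of count divided by length and by 1 constant per library. The constant was 1.098 and 0.9495 times the total counts in the vehicle libraries and 1.028 and 0.9376 times in the cisplatin libraries. These values are close to the TMM factors, so the FPKM settings are no separate check of that scaling. The submitters' processing notes name HISAT2 2.0.5, StringTie 1.3.3b and featureCounts 1.5.0-p3, and the study's methods give the Rnor_6.0 genome. Messenger RNA was enriched with poly-T beads, so rRNA and tRNA rows hold only what passed that step. Strand and multi-mapping settings were not given in the sources used here.

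Counts of all gene types were filtered (filterByExpr), scaled (TMM, factors 0.938 to 1.10) and fitted with edgeR 4.0.16 by group. Calls were Benjamini-Hochberg adjusted p under 0.05 with at least 1.5-fold change, fitted across 16182 genes. DESeq2 1.42.0 and limma 3.58.1 on log2(FPKM + 1) or log2(FPKM + 0.1), other scalings, filters, a gene length correction, a replicate block and leaving out each library were alternatives. The edgeR fit, its block and gene length forms, DESeq2 and limma were run on simulated counts with the same spread for every gene. The simulated libraries had no differences in cell make-up, so these runs do not vouch for calls in the real ones. P-values measure only the spread between these 4 samples, and an exact two-sided permutation test of 2 against 2 cannot go below 0.333.

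The genes and lists were chosen with earlier results of these data known. All mRNA and rRNA rows were named, tRNA rows with at least 100 counts, set genes of each nuclear list, those called by edgeR or DESeq2, and the ends of each list. AY172581.1 was named as the lowest tRNA row, and AY172581.20 because its sign depended on the libraries used.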

Additional observations from a re-analysis of the deposited data

How the results depend on the processing

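The median log2 fold change of the 13 mitochondrial mRNAs stayed above 0 in every alternative, from 0.81 without vehicle replicate 1 to 1.76 without vehicle replicate 2. That of the 2 rRNA rows ranged from 0.21 to 0.65 when a library was left out, lowest without cisplatin replicate 2. The summed tRNA value ranged from 0.77 to 1.42. The nuclear subunit median was 0.23 with the gene length correction and ranged from 0.37 to 0.53 when a library was left out. The difference in mitochondrial share, 3.07 percentage points, became 4.37 against nuclear counts without the 100 highest genes. Leaving out a library turned the sign for AY172581.24 (to -0.16), Mt-atp8 (-0.053 to 0.50), AY172581.7 (-0.79 to 0.44, also 0.06) and AY172581.20 (-1.22 to 0.26, also 0.06), all with low counts or overlapping groups.

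Calls differed between tools and settings, and the cause was not tested. Mitochondrial rows called higher were 0 with edgeR, 1 without the filter on low counts, 6 with DESeq2 and 12 at an unadjusted p. Over all genes, edgeR called 1, with 36 without the filter, 2 when a minimum of 10 counts was set for each library, 129 with DESeq2, 1292 at an unadjusted p and 0 to 11 when a library was left out. For the genes of mitochondrial transcription and RNA processing, 0 were called and 1 (Slirp) at an unadjusted p.

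The samples came from different rats, and the sources used here state no pairing by replicate number. Whether replicates of the same number shared a litter, a day or a batch was not stated. The difference of replicate 2 from replicate 1 in vehicle had a Pearson r of 0.432 with that in cisplatin, across 16182 genes, which are not independent replicates. With the replicate block, 14 mitochondrial rows, 1591 of all genes and 1 of the transcription and processing genes were called, and the median of the 13 mRNAs was 1.27.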
